A study of Mus musculus with 20 samples.

Results

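The aminoacyl-tRNA synthetases were followed across fasted and refed mouse livers that carried either a SUMO-deficient Prox1 (K556R) in hepatocytes or wild-type Prox1. The members were the rows of the read count table with the listed symbols. There were 36 of 29915 genes, of which 20 were cytosolic and 16 mitochondrial (symbols that end in 2). All 36 passed the filter on low counts that left 13894 genes for testing.

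Each synthetase joins 1 amino acid to the tRNAs that read its codons, and so supplies the ribosome with substrate. Cytosolic and mitochondrial protein synthesis are mostly served by separate nuclear genes, although Gars and Kars each encode the enzyme of both compartments. Several cytosolic enzymes sit together in the multisynthetase complex, which is held by the scaffold proteins Aimp1, Aimp2 and Eef1e1. The genes of many cytosolic synthetases are known targets of ATF4, the transcription factor of the amino acid and endoplasmic reticulum stress responses. The liver makes most plasma proteins, and feeding is known to raise its protein synthesis.

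The groups were K556R refed, K556R fasted, wild type refed and wild type fasted livers. Each had 5 libraries of polyadenylated RNA, and all came from male mice on chow. Cre switched K556R on in hepatocytes of 8 week old mice, and 11 weeks afterwards livers were sampled at ZT 15 to 17. The sample titles call the genotypes Cre and Ctrl, so Cre itself cannot be told apart from K556R, and the promoter that drives Cre is not given in the sources used here. Batch 1 held 14 libraries and batch 2 held 6, of which 3 were K556R refed and 1 came from each other group. A library name such as 2_b1 means replicate 2 of batch 1. The labels do not say how libraries relate to animals, so p-values measure the spread between these libraries, which may be technical.

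Library totals were 33746054 to 50647297 counts, and levels are given as CPM, counts scaled to a common library total. Pck1, the gluconeogenic enzyme that feeding lowers, was at 597 to 2390 CPM in refed and 4870 to 8020 CPM in fasted libraries of both genotypes, which do not overlap. Prox1 was at 57.7 to 89.4 CPM in K556R refed and 93.3 to 133 CPM in wild type refed livers. In fasted livers it was at 85 to 126 CPM in K556R and 121 to 223 CPM in wild type, and neither genotype difference passed the test (edgeR quasi-likelihood, adjusted p = 0.559 refed and 0.0666 fasted). Counts per gene do not show the amino acid change itself. The summed level of 6 hepatocyte markers was 96100 to 111000 CPM in K556R refed and 122000 to 128000 CPM in K556R fasted livers, which do not overlap. It was 101000 to 107000 CPM in wild type refed and 95200 to 134000 CPM in wild type fasted livers. Alb made up most of these sums, with means of 81900 CPM in K556R refed and 103000 CPM in K556R fasted livers. In wild type its means were 84700 CPM refed and 92300 CPM fasted. On refeeding in K556R 3 of the 6 were called lower and 3 had positive log2 changes, with 0 called higher. In wild type 2 were called lower and 1 higher. K556R fasted 1_b1 and K556R refed 1_b1 stood apart, with summed levels of 8 proliferation markers of 23.6 and 54.7 CPM, against at most 16.2 CPM in wild type libraries. Their Asns (asparagine synthetase, an ATF4 target outside the family) was at 43.6 and 22.5 CPM, whereas no other library exceeded 4.92 CPM. The counts of called members and the calls of Qars and Lars2 are also given without them.

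Refeeding was accompanied by higher synthetase mRNA in both genotypes and both compartments. In K556R livers 22 of the 36 members rose and 0 fell, 14 of 20 cytosolic and 8 of 16 mitochondrial. In wild type livers 22 rose and 0 fell, 13 of 20 cytosolic and 9 of 16 mitochondrial. A gene was called at an adjusted p under 0.05 by edgeR's quasi-likelihood test, with Benjamini-Hochberg adjustment over all 13894 genes. Of all genes tested, 19.6% were called higher and 20.3% lower in K556R livers, and 20.9% higher and 24.2% lower in wild type livers.

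The median log2 change of the cytosolic set, refed over fasted, was 0.282 in K556R and 0.335 in wild type, and that of the mitochondrial set was 0.268 in K556R and 0.312 in wild type. The median of all genes tested was 0.007 in K556R and -0.012 in wild type. Apart from Lars2, no member that was called exceeded a 1.79-fold difference, the value of Pars2 in wild type livers. Both genotypes called 19 of the 36 members higher, and 11 were called in neither.

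**Figure D1:**
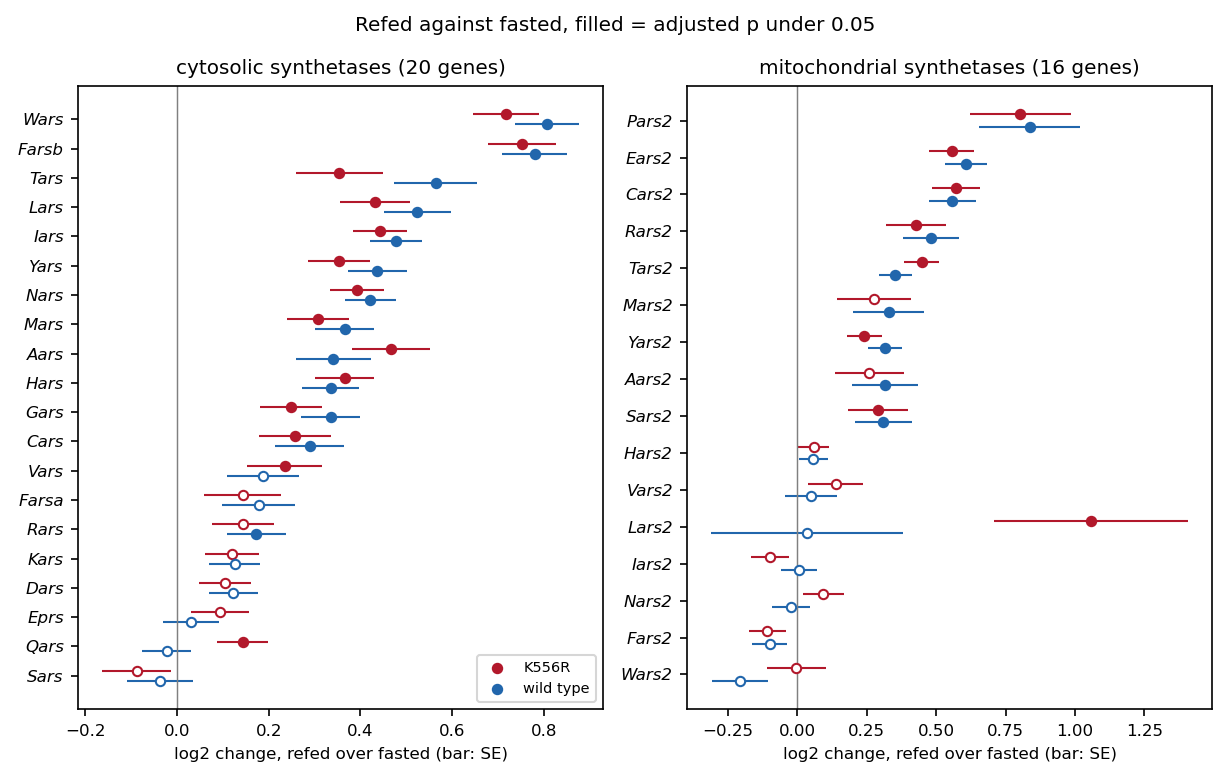
Log2 change of each synthetase, refed over fasted (horizontal axis), with its standard error, in K556R (red, upper of each pair) and wild type livers (blue, lower), with cytosolic genes on the left and mitochondrial genes on the right. Filled points passed an adjusted p of 0.05. Wars and Farsb lead the cytosolic set in wild type at 0.81 and 0.78, Pars2 leads the mitochondrial set at 0.84, and 11 members are open in both genotypes.

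Separation between libraries was checked for each member. The 5 refed and 5 fasted libraries did not overlap for 10 cytosolic and 4 mitochondrial members in K556R livers. In wild type livers 11 cytosolic and 8 mitochondrial members did not overlap. Among all genes tested, 12.8% in K556R and 15.9% in wild type were higher in refed livers without overlap. The mean of the 20 cytosolic members, as log2 CPM centred over the 20 libraries, lay between 0.124 and 0.179 in K556R refed and between -0.222 and -0.072 in K556R fasted livers. It lay between 0.099 and 0.264 in wild type refed and between -0.214 and -0.109 in wild type fasted livers. The mean of the mitochondrial members without Lars2 lay between 0.064 and 0.218 in K556R refed and between -0.244 and -0.032 in K556R fasted livers. It lay between 0.07 and 0.188 in wild type refed and between -0.141 and -0.11 in wild type fasted livers. Both means were thus positive in all 10 refed and negative in all 10 fasted libraries.

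**Figure D2:**
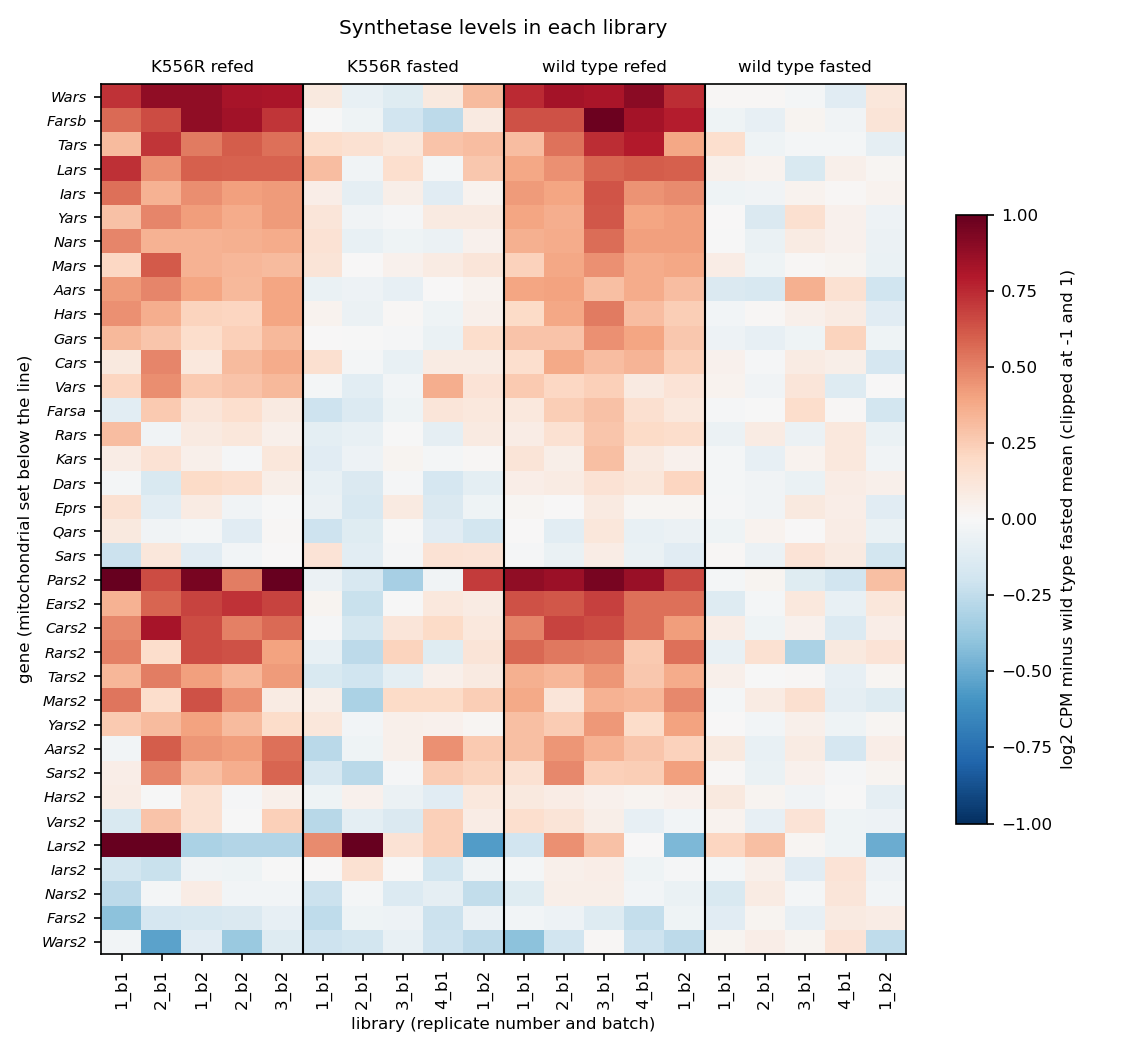
Log2 CPM of each synthetase (rows) in each library (columns, grouped as K556R refed, K556R fasted, wild type refed and wild type fasted), minus its mean over the wild type fasted libraries. Red is higher and blue lower, with the scale clipped at -1 and 1. The refed columns are red across most cytosolic rows (top) and across the upper 9 mitochondrial rows (bottom). Lars2 is high in K556R refed 1_b1 and 2_b1 and in K556R fasted 2_b1.

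Within the cytosolic set, Wars (tryptophanyl-tRNA synthetase, chr12:108860030-108894174, minus strand, GRCm38) changed most in wild type livers. Its level was 17.7, 19.8, 19.8, 19 and 18.9 CPM in K556R refed livers, against 11.5, 13.4, 10.2, 9.85 and 11.5 CPM in K556R fasted livers. It was 18, 17.9, 19.1, 18.9 and 20.1 CPM in wild type refed livers, against 10.8, 11.6, 10.8, 10.6 and 9.95 CPM in wild type fasted livers. Every refed library was above every fasted one. The log2 change was 0.72 (SE 0.0724, adjusted p = 3e-07) in K556R and 0.81 (SE 0.0698, adjusted p = 3.12e-08) in wild type.

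Cytosolic phenylalanyl-tRNA synthetase is built from an alpha chain (Farsa) and the beta chain Farsb, and their mRNAs moved unequally. Farsb (chr1:78417975-78488897, minus strand) was at 35.4, 44.0, 37.5, 42.7 and 39.2 CPM in K556R refed livers, against 23.8, 25.4, 23.1, 20.9 and 19.9 CPM in K556R fasted livers. It was at 37.0, 41.0, 37.1, 47.0 and 42.4 CPM in wild type refed livers, against 23.2, 26.1, 22.5, 24.3 and 23.3 CPM in wild type fasted livers. Refed and fasted libraries did not overlap, and the log2 change was 0.75 (SE 0.0743, adjusted p = 2.29e-07) in K556R and 0.78 (SE 0.0706, adjusted p = 5.16e-08) in wild type. Farsa (chr8:84856989-84869257) was at 17.5, 20.4, 22.5, 21.1 and 20 CPM in K556R refed livers, against 16.3, 20.2, 17.1, 18.3 and 20.4 CPM in K556R fasted livers. It was at 20.2, 20.2, 22.3, 23 and 21 CPM in wild type refed livers, against 18.7, 16.6, 18.8, 21.2 and 19 CPM in wild type fasted livers. Its ranges overlapped, with log2 changes of 0.14 (adjusted p = 0.192) in K556R and 0.18 (adjusted p = 0.079) in wild type.

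As a description, the ratio of Farsb to Farsa CPM was 1.66 to 2.16 in K556R refed and 0.978 to 1.45 in K556R fasted livers. In wild type it was 1.67 to 2.05 in refed and 1.15 to 1.57 in fasted livers. Ratios of refed libraries were all above those of fasted libraries. Exons of Farsb share 248 bases, 9.47% of its exon length, with Sgpp2 on the opposite strand, and the strand setting of the counting is not given in the sources used here.

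Iars (isoleucyl-tRNA synthetase) and Nars (asparaginyl-tRNA synthetase) had the next lowest p-values of the cytosolic set. Iars was at 63.8, 60.0, 55.2, 57.6 and 58.4 CPM in K556R refed livers, against 45.5, 44.6, 40.8, 45.2 and 40.1 CPM in K556R fasted livers. It was at 58.4, 60.4, 57.1, 67.2 and 59.4 CPM in wild type refed livers, against 42.2, 44.4, 42.3, 44.6 and 43.8 CPM in wild type fasted livers. No refed library came near the fasted ranges, and the log2 change was 0.44 (SE 0.0592, adjusted p = 7.26e-06) in K556R and 0.48 (SE 0.0565, adjusted p = 1.17e-06) in wild type. Nars was at 114 to 126 CPM in K556R refed and 85.4 to 99.2 CPM in K556R fasted livers, and at 115 to 132 CPM in wild type refed and 85.5 to 95.2 CPM in wild type fasted livers. Its log2 change was 0.39 (SE 0.0591, adjusted p = 2.77e-05) in K556R and 0.42 (SE 0.0564, adjusted p = 4.82e-06) in wild type.

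Lars (leucyl-tRNA synthetase, which also senses leucine for mTORC1) was at 35.4 to 42.8 CPM in K556R refed and 25.2 to 31.9 CPM in K556R fasted livers. It was at 33.8 to 39.3 CPM in wild type refed and 23.2 to 26.7 CPM in wild type fasted livers. The ranges did not overlap, and the log2 change was 0.43 (SE 0.0758, adjusted p = 0.000132) in K556R and 0.52 (SE 0.0727, adjusted p = 7.33e-06) in wild type. Yars (tyrosyl-tRNA synthetase) was at 33.1 to 37.9 CPM in K556R refed and 26.3 to 29.4 CPM in K556R fasted livers. In wild type it was at 34.8 to 41.5 CPM refed and 24.4 to 30.1 CPM fasted, and its log2 change was 0.35 (SE 0.0677, adjusted p = 0.000318) in K556R and 0.44 (SE 0.0645, adjusted p = 1.52e-05) in wild type.

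The other cytosolic members that rose in both genotypes were the synthetases for threonine (Tars), alanine (Aars), histidine (Hars), methionine (Mars), glycine (Gars) and cysteine (Cars). Tars was at 119 to 157 CPM in K556R refed and 103 to 118 CPM in K556R fasted livers, and at 118 to 165 CPM in wild type refed and 89.8 to 107 CPM in wild type fasted livers. Its log2 change was 0.35 in K556R and 0.56 in wild type. Aars was at 246 to 276 CPM in K556R refed and 186 to 202 CPM in K556R fasted livers, and at 242 to 260 CPM in wild type refed and 171 to 252 CPM in wild type fasted livers, where 1 fasted library reached the refed range. Aars shares 1326 exonic bases, 14.29% of its exon length, with Exosc6 on the same strand, and reads there cannot be told apart. Hars and its mitochondrial neighbour Hars2 share 195 exonic bases on opposite strands. The log2 changes of these 6 lay between 0.25 (Gars) and 0.47 (Aars) in K556R and between 0.29 (Cars) and 0.56 (Tars) in wild type. In K556R the refed and fasted ranges overlapped for Cars (20.7 to 27.1 against 18.4 to 21.6 CPM). They met for Gars (42.7 to 47.4 against 36.2 to 42.7 CPM). In batch 1 alone the K556R calls of Cars (adjusted p = 0.0664) and Tars (adjusted p = 0.0569) were lost. That of Cars was also lost without K556R refed 2_b1 (adjusted p = 0.0578).

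A further 3 cytosolic members passed in 1 genotype. Rars (arginine) passed in wild type at a log2 change of 0.17 (adjusted p = 0.0352), against 0.14 (adjusted p = 0.0999) in K556R. Vars (valine) passed in K556R at 0.23 (adjusted p = 0.0277), against 0.19 (adjusted p = 0.0584) in wild type. Qars (glutamine) passed in K556R at 0.14 (adjusted p = 0.049), against -0.02 (adjusted p = 0.772) in wild type. Their ranges overlapped in the genotype where they passed, and their interactions of genotype and feeding were not called. Qars lost its call in 14 of the 20 fits that left out 1 library and without both K556R 1_b1 libraries (log2 change 0.10, adjusted p = 0.241). Rars lost its call in 6 of these 20 fits and Vars in 4. In batch 1 alone neither was called (adjusted p = 0.121 for Rars in wild type and 0.101 for Vars in K556R).

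Dars (aspartate), Eprs (the fused glutamate and proline enzyme), Farsa, Kars (lysine) and Sars (serine) were called in neither genotype. Sars was at 42.9 ± 3.68 CPM in K556R refed and 46.2 ± 3.59 CPM in K556R fasted livers, and at 43.2 ± 2.23 CPM in wild type refed and 44.3 ± 3.82 CPM in wild type fasted livers (SD, n = 5 each). Eprs was at 139 to 166 CPM in K556R refed and 134 to 159 CPM in K556R fasted livers, and at 150 to 159 CPM in wild type refed and 138 to 160 CPM in wild type fasted livers. Refed and fasted ranges of both genes overlapped widely. The 95% interval of the log2 change in wild type was -0.187 to 0.112 for Sars and -0.097 to 0.157 for Eprs. Dars, Kars and Farsa were close to the threshold: in wild type their log2 changes were 0.12, 0.13 and 0.18, and each was called under at least 5 of 14 alternative settings.

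**Figure D3:**
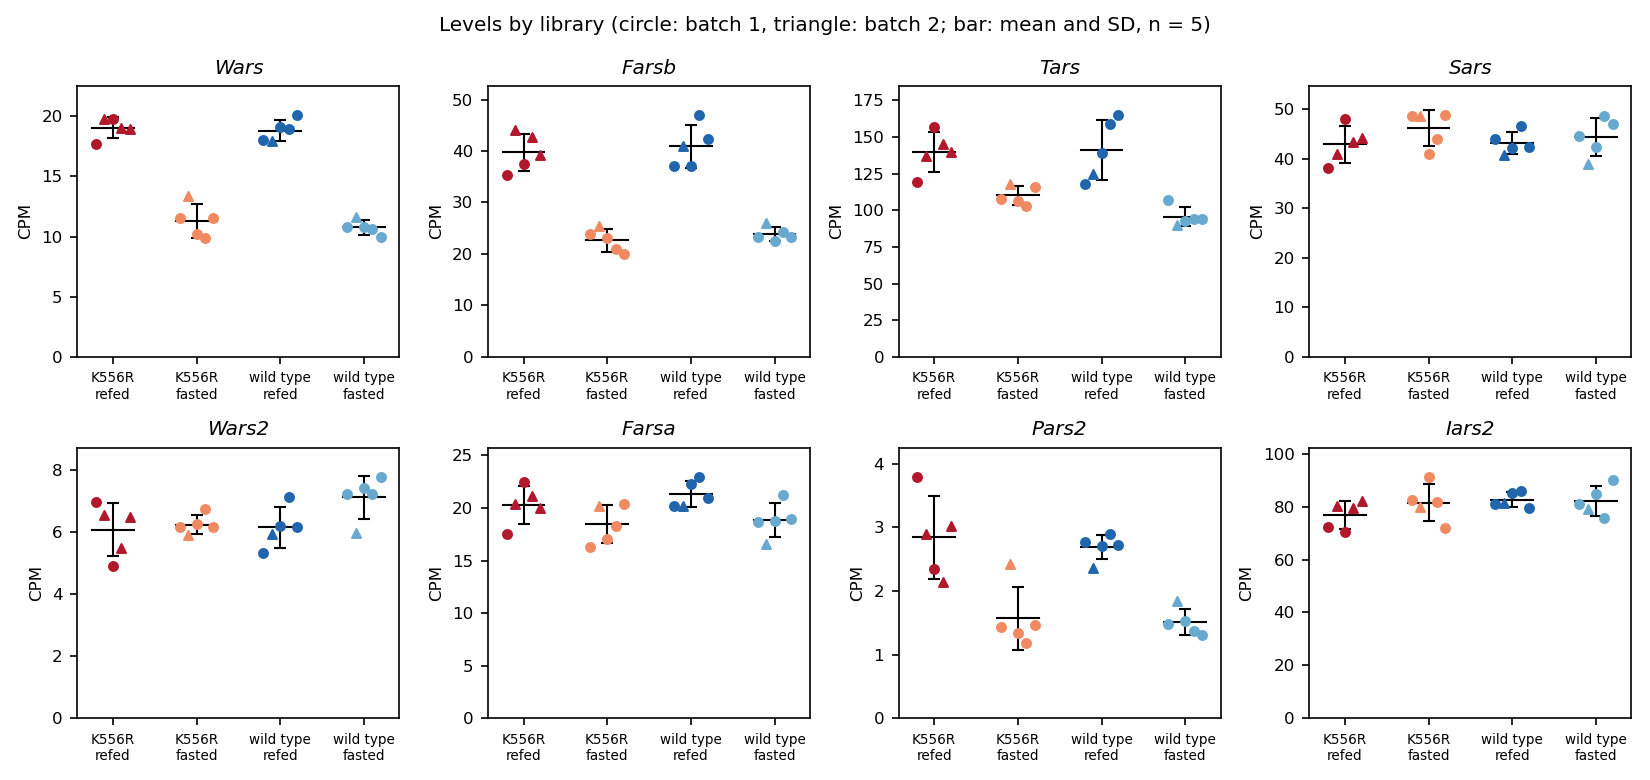
CPM of 8 synthetases in each library (points; circles are batch 1, triangles batch 2) by group, with the mean and SD of 5 libraries. Wars and Farsb separate refed from fasted libraries in both genotypes, whereas their counterparts Wars2 and Farsa, and also Sars and Iars2, overlap. Tars and Pars2 are higher in refed livers, with overlap for Pars2 in K556R.

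The cytosolic set was also divided by the multisynthetase complex. Of its 8 synthetases in the list, 4 rose in each genotype (Iars, Lars and Mars in both, with Qars in K556R and Rars in wild type). Their median log2 change was 0.143 in K556R and 0.149 in wild type. Of the 12 cytosolic members outside the complex, 10 rose in K556R and 9 in wild type, with medians of 0.353 in K556R and 0.338 in wild type. The difference between these sets was not tested. By structural class, 8 of 9 class I enzymes rose in K556R and 7 of 9 in wild type, against 6 of 10 class II enzymes in each genotype. Eprs, which joins both classes and was not called, was left out of this division. The difference between classes was not tested, and the class I counts include the unstable calls of Qars, Vars and Rars.

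The scaffolds of the complex went different ways. Aimp2 rose, with a log2 change of 0.48 (adjusted p = 0.000465) in K556R and 0.50 (adjusted p = 0.000193) in wild type. Aimp1 fell by 0.28 on the log2 scale in K556R (adjusted p = 0.00362) and by 0.27 in wild type (adjusted p = 0.00258). Eef1e1 was at 0.19 in K556R and 0.15 in wild type and was not called.

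In the mitochondrial set the lowest p was that of Ears2 (glutamyl-tRNA synthetase, chr7:122037213-122067263, minus strand) in wild type. Ears2 was at 8.78, 11.0, 10.3, 11.4 and 11.0 CPM in K556R refed livers, against 7.03, 7.29, 5.92, 6.86 and 7.40 CPM in K556R fasted livers. It was at 10.7, 10.1, 10.6, 11.1 and 10.1 CPM in wild type refed livers, against 6.31, 7.45, 6.82, 7.41 and 6.56 CPM in wild type fasted livers. Refed libraries were all above fasted ones. The log2 change was 0.56 (SE 0.0806, adjusted p = 1.73e-05) in K556R and 0.61 (SE 0.0765, adjusted p = 2.44e-06) in wild type.

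Cars2 (cysteine) was at 11.7 to 14.8 CPM in K556R refed and 7.41 to 9.57 CPM in K556R fasted livers, and at 11.2 to 13.4 CPM in wild type refed and 7.62 to 8.81 CPM in wild type fasted livers. Its log2 change was 0.57 (SE 0.0865, adjusted p = 2.89e-05) in K556R and 0.56 (SE 0.0831, adjusted p = 1.68e-05) in wild type. Refed and fasted libraries did not overlap for Cars2, nor for Tars2 (threonine). Tars2 was at 24.9 to 28.2 CPM in K556R refed and 17.3 to 21.1 CPM in K556R fasted livers, and at 23.9 to 26.9 CPM in wild type refed and 18.7 to 20.5 CPM in wild type fasted livers. Its log2 change was 0.45 (SE 0.0631, adjusted p = 1.27e-05) in K556R and 0.35 (SE 0.0605, adjusted p = 7.94e-05) in wild type.

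Pars2 (proline) had the largest log2 change of the family in wild type, on a low level. It was at 3.80, 2.90, 2.35, 2.14 and 3.02 CPM in K556R refed livers, against 1.44, 2.43, 1.34, 1.19 and 1.46 CPM in K556R fasted livers. It was at 2.77, 2.37, 2.71, 2.89 and 2.73 CPM in wild type refed livers, against 1.48, 1.85, 1.53, 1.38 and 1.31 CPM in wild type fasted livers. The groups overlapped in K556R, where fasted 1_b2 reached the refed range, but not in wild type. The log2 change was 0.80 (SE 0.182, adjusted p = 0.00147) in K556R and 0.84 (SE 0.181, adjusted p = 0.00076) in wild type. In batch 2 alone, which had 1 fasted library of each genotype, it was 0.14 in K556R and 0.37 in wild type, neither called.

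The other mitochondrial members that rose in both genotypes were Rars2 (arginine) at 0.43 in K556R and 0.48 in wild type, Sars2 (serine) at 0.29 in K556R and 0.31 in wild type, and Yars2 (tyrosine) at 0.24 in K556R and 0.32 in wild type. In K556R the refed and fasted ranges overlapped for Rars2 (11.7 to 16.3 against 8.66 to 12.1 CPM) and for Sars2 (5.99 to 8.57 against 4.76 to 6.83 CPM). The call of Sars2 in K556R was lost in 6 of 20 fits that left out 1 library, and in wild type in 2. In batch 1 alone Rars2 was not called in K556R (adjusted p = 0.0644). Nor was Sars2 called there in K556R (adjusted p = 0.135) or wild type (adjusted p = 0.0842). Aars2 (alanine) and Mars2 (methionine) rose in wild type alone, at 0.32 (adjusted p = 0.0349) and 0.33 (adjusted p = 0.0429). Their values in K556R were 0.26 (adjusted p = 0.102) and 0.28 (adjusted p = 0.109). Both calls were among the less stable: leaving out 1 library ended that of Aars2 in 7 of 20 fits and that of Mars2 in 9.

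Fars2 (phenylalanine), Hars2 (histidine), Iars2 (isoleucine), Nars2 (asparagine), Vars2 (valine) and Wars2 (tryptophan) were called in neither genotype. Their log2 changes lay between -0.11 (Fars2) and 0.14 (Vars2) in K556R and between -0.21 (Wars2) and 0.06 (Hars2) in wild type. Iars2 was at 70.3 to 82.0 CPM in K556R refed and 72.1 to 91.4 CPM in K556R fasted livers, and at 79.5 to 86.0 CPM in wild type refed and 75.7 to 90.2 CPM in wild type fasted livers. The 95% interval of its log2 change in wild type was -0.129 to 0.142. Iars2 shares 22.89% of its exon length with Rab3gap2 on the opposite strand.

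The 2 enzymes for 1 amino acid often moved unequally. Of 13 amino acids with 1 gene in each compartment, both genes rose for 4 in K556R and for 6 in wild type. Some of these pairs rest on unstable calls. Leaving out 1 library ended the call of Lars2 in K556R in 3 of 20 fits. In wild type it ended those of Aars2, Mars2 and Rars in 7, 9 and 6. The cytosolic gene alone rose for 7 in K556R and 5 in wild type, the mitochondrial gene alone for 2 in K556R and 1 in wild type, and neither for 0 in K556R and 1 in wild type. For tryptophan the log2 change was 0.72 for Wars and -0.004 for Wars2 in K556R, and 0.81 for Wars and -0.21 for Wars2 in wild type. Isoleucine, histidine and asparagine gave the same division of called and not called in both genotypes. Serine ran the other way, with -0.09 for Sars and 0.29 for Sars2 in K556R, and -0.04 for Sars and 0.31 for Sars2 in wild type. Glutamate and proline share Eprs in the cytosol, which was at 0.09 in K556R and 0.03 in wild type, whereas Ears2 and Pars2 rose. No difference between paired genes was tested.

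Promoter sequence of the RefSeq table (GRCm38.p6, 250 bases before to 50 after the start of each gene) was matched by symbol for 26 of the 36 members, 12 cytosolic and 14 mitochondrial. It was searched on both strands for TGATGNAA, a motif of ATF4 with C/EBP partners, because many cytosolic synthetases are known ATF4 targets. The search was chosen with the refeeding results known. The motif stood in 5 of the 12 cytosolic promoters (41.667%), in 0 of the 14 mitochondrial promoters and in 1219 of all 27025 promoters in the table (4.511%). For each of these 5 genes 1 match is printed in a window of 30 bases in the gene's direction, with the match in capitals. TTNCATCA is the same motif read on the other strand.
Aars, chr8:111033840-111033869, plus strand: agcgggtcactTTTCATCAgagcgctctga
Gars, chr6:55037960-55037989, plus strand: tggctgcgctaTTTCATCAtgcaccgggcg
Iars, chr13:49682126-49682155, plus strand: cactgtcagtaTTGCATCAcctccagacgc
Tars, chr15:11399655-11399684, minus strand: caggagtcccgTTGCATCAgctggttagct
Yars, chr4:129189895-129189924, plus strand: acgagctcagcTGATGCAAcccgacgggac

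All 5 genes with the motif rose on refeeding in both genotypes, with a median log2 change of 0.354 in K556R and 0.437 in wild type. Of the 7 cytosolic promoters without it (Dars, Eprs, Farsa, Farsb, Kars, Qars and Sars), 2 rose in K556R and 1 in wild type, with medians of 0.12 in K556R and 0.123 in wild type. Of the 8 cytosolic members with no promoter here (Cars, Hars, Lars, Mars, Nars, Rars, Vars and Wars), 7 rose in each genotype. Of the 14 mitochondrial promoters, none with the motif, 7 rose in K556R and 8 in wild type. A match of letters is a description and not a binding site, and these counts were not tested.

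The ATF4 list outside the family did not move in 1 direction. Of 23 genes listed, 19 were tested. In K556R 2 rose and 5 fell, and in wild type 3 rose and 6 fell. Atf4 itself rose, with a log2 change of 0.45 (adjusted p = 0.00941) in K556R and 0.56 (adjusted p = 0.00091) in wild type. Sesn2 (a stress-induced inhibitor of mTORC1) fell by 1.65 in K556R (adjusted p = 1.53e-05) and by 1.62 in wild type (adjusted p = 6.04e-06). Chac1 (a glutathione-degrading enzyme) fell by 1.51 in K556R and by 1.73 in wild type, and Trib3 (a pseudokinase that restrains ATF4) fell by 1.24 in K556R and by 1.07 in wild type. Psph (serine synthesis) also rose in both genotypes and Atf5 in wild type; these 2 were named after their values were seen. In the 2 libraries with high Asns, the mean of the cytosolic synthetases was 0.124 in K556R refed 1_b1, the lowest of its group. In K556R fasted 1_b1 it was -0.132, between the values of the other libraries of its group. Atf4 was not high in these 2 libraries. It was at 90.2 CPM in K556R refed 1_b1 (group range 90.2 to 164 CPM) and 85.3 CPM in K556R fasted 1_b1 (85.3 to 106 CPM). Whether their high Asns reflects ATF4 was not tested.

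Enzymes that complete or check aminoacylation rose alongside. Of 10 listed, 8 were in the table, and 6 rose in K556R and 7 in wild type, with 0 lower. Qrsl1, a subunit of the mitochondrial amidotransferase that makes glutaminyl-tRNA, was at 5.97 ± 0.783 CPM in K556R refed and 3.24 ± 0.408 CPM in K556R fasted livers. In wild type it was at 5.92 ± 0.69 CPM refed and 3.42 ± 0.495 CPM fasted (SD, n = 5 each). Its log2 change was 0.79 in both genotypes (adjusted p = 1.31e-05 in K556R and 5.05e-06 in wild type). Mtfmt, which formylates mitochondrial methionyl-tRNA, was at 0.37 in K556R and 0.40 in wild type. Dtd1, a deacylase that removes D-amino acids from tRNA, was at 0.33 in K556R and 0.58 in wild type. Prorsd1, related to bacterial editing domains, was at 0.33 in K556R and 0.46 in wild type.

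Elongation factors of translation were divided. Of 5 cytosolic factors, 1 rose and 2 fell in K556R, and 1 rose and 1 fell in wild type. Eef1g was at 0.31 in K556R and 0.26 in wild type, and Eef2 (the translocation factor) fell by 0.52 in K556R (adjusted p = 0.0017) and by 0.62 in wild type (adjusted p = 0.000138). Of 5 mitochondrial factors, Tsfm and Gfm1 rose in both genotypes, Tsfm at 0.38 in K556R and 0.45 in wild type and Gfm1 at 0.21 in K556R and 0.31 in wild type.

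Wars is also known as an interferon gamma induced gene, so that list was read beside it. Of 12 genes 11 were tested, 7 rose and 0 fell in each genotype, with a median log2 change of 0.74 in K556R and 0.508 in wild type. Irgm1 rose by 0.98 in K556R and 0.89 in wild type, and Irf1 by 0.92 in K556R and 0.87 in wild type. Lymphocyte markers summed to 4.22 to 9.09 CPM in K556R refed and 2.01 to 9.40 CPM in K556R fasted livers, and to 3.74 to 5.39 CPM in wild type refed and 1.75 to 3.79 CPM in wild type fasted livers, with 1 of 7 tested markers higher in each genotype. The highest sum in each K556R group was that of 1_b1. Of 7 sinusoidal endothelial markers, 2 fell in K556R and 4 in wild type. Of 9 Kupffer cell markers, 0 were called in K556R and 1 fell in wild type, where the sum in fasted 2_b1 was 301 CPM against a group median of 104 CPM. Of 8 stellate cell markers, 2 rose and 1 fell in K556R and 0 were called in wild type. Of 7 tested proliferation markers, 3 rose in K556R and 0 were called in wild type. The part of other cell types in the synthetase changes was not tested, and in bulk tissue fewer cells of a type and less RNA per cell cannot be told apart.

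K556R was set against wild type in each feeding state to ask whether the SUMO site of Prox1 bears on these genes. No member was called. Of all 13894 genes, edgeR called 0% in fasted livers, 0% in refed livers and 0% for the interaction of genotype and feeding. At an unadjusted p under 0.05 there were 1136 genes (8.18%) with 2 members in fasted livers, 693 genes (4.99%) with 1 member in refed livers and 553 genes (3.98%) with 1 member for the interaction. DESeq2 called 68, 6 and 1 of all genes and limma 2, 0 and 0, with 0 members in either tool. No member separated K556R from wild type libraries without overlap, against 0.914% of all genes in fasted and 0.619% in refed livers.

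**Figure D4:**
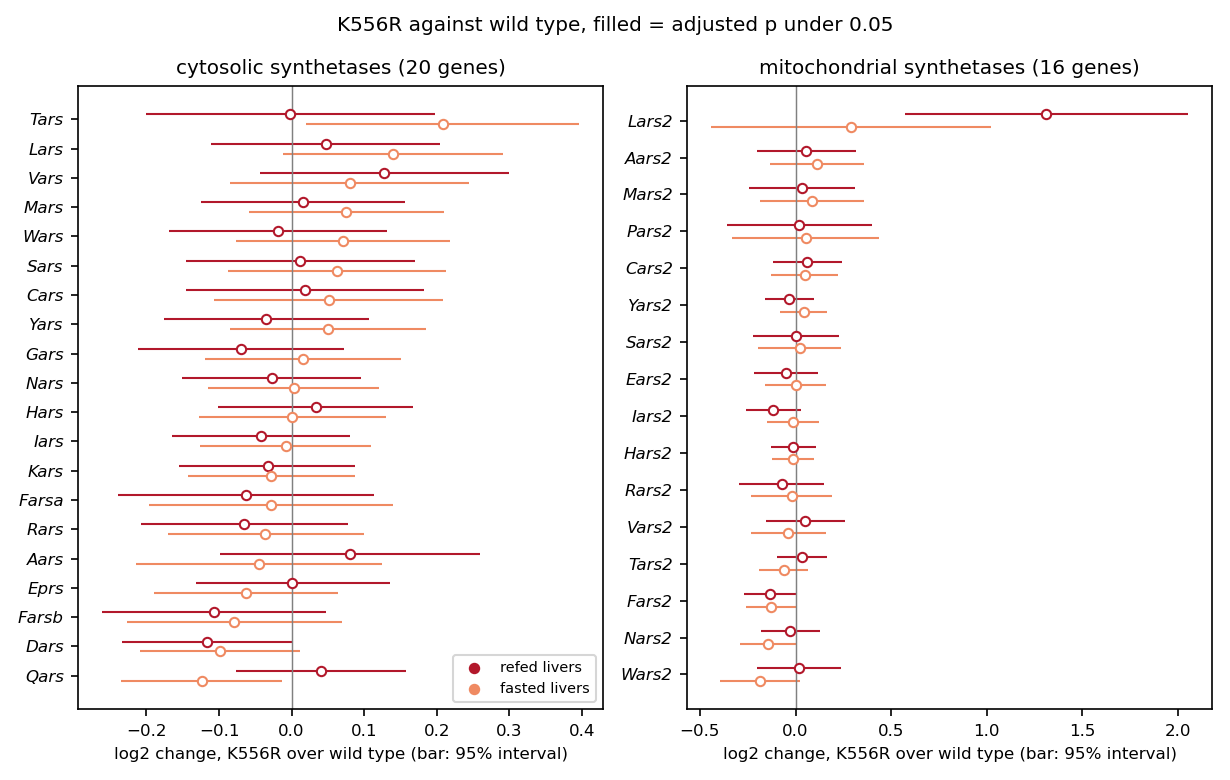
Log2 change of each synthetase, K556R over wild type (horizontal axis), with its 95% interval, in refed (red, upper of each pair) and fasted livers (orange, lower). All points are open, since none passed an adjusted p of 0.05. Apart from Lars2, the values lie within -0.19 and 0.21 and most intervals cross 0.

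The genotype differences were small beside those of feeding. Leaving Lars2 aside, the log2 differences of the 35 other members, K556R over wild type, lay between -0.133 (Fars2) and 0.127 (Vars) in refed livers and between -0.187 (Wars2) and 0.208 (Tars) in fasted livers. Their 95% intervals together spanned -0.359 to 0.398 in refed livers, both for Pars2, and -0.395 (Wars2) to 0.439 (Pars2) in fasted livers. A difference of that size was not excluded for those genes.

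In fasted livers the lowest p-values were those of Qars, Tars, Nars2 and Fars2. Qars was at 46.1 to 53.1 CPM in K556R fasted and 50.9 to 55.9 CPM in wild type fasted livers, a log2 change of -0.12 (SE 0.0533, adjusted p = 0.544). Tars was at 103 to 118 CPM in K556R fasted and 89.8 to 107 CPM in wild type fasted livers, a log2 change of 0.21 (SE 0.0902, adjusted p = 0.544). Nars2 and Fars2 had log2 changes of -0.14 (adjusted p = 0.618) and -0.13 (adjusted p = 0.632). The ranges of all 4 overlapped between genotypes.

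In refed livers the lowest p-values after Lars2 were those of Dars at -0.12, Fars2 at -0.13 and Iars2 at -0.12, each with an adjusted p of 0.965. For the interaction they were those of Qars at 0.16 (SE 0.0773), Lars2 at 1.02 (SE 0.491), Tars at -0.21 (SE 0.131) and Wars2 at 0.20 (SE 0.145), each with an adjusted p of 1. The members called in 1 genotype alone are therefore not shown to respond differently between genotypes.

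Lars2 (mitochondrial leucyl-tRNA synthetase, chr9:123366927-123462666) differed from the rest of the family in its spread. It was at 162, 53.6, 473, 54.7 and 54.7 CPM in K556R refed libraries 1_b1, 1_b2, 2_b1, 2_b2 and 3_b2. It was at 92.6, 45.3, 144, 74.1 and 78.9 CPM in K556R fasted livers, at 58.7, 48.9, 91.6, 82.1 and 67 CPM in wild type refed livers, and at 77.8, 47.5, 82.3, 67.7 and 65.0 CPM in wild type fasted livers. The 2 highest values were K556R refed libraries of batch 1, and the 3 K556R refed libraries of batch 2 were below every batch 1 library. Batch 2 as a whole was at 45.3 to 54.7 CPM and batch 1 at 58.7 to 473 CPM.

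The feeding difference of Lars2 in K556R depended on single libraries and on the fit. It was called, with a log2 change of 1.06 (SE 0.35, adjusted p = 0.0236), although the ranges overlapped. Without K556R refed 2_b1 the log2 change was 0.35 (adjusted p = 0.219). It was also not called without K556R fasted 3_b1 (adjusted p = 0.055), without K556R fasted 4_b1 (adjusted p = 0.0549) or without both K556R 1_b1 libraries (adjusted p = 0.0509). Nor was it called by edgeR without the batch term (log2 change 0.88, adjusted p = 0.188) or by limma with sample quality weights (log2 change 0.57, adjusted p = 0.189). The median level in K556R was 54.7 CPM refed and 78.9 CPM fasted, with 3 of the 5 refed libraries in batch 2. In wild type the log2 change was 0.04 (SE 0.346, adjusted p = 0.944). K556R over wild type in refed livers gave 1.31 (SE 0.351, adjusted p = 0.791), and 0.61 (adjusted p = 0.484) without K556R refed 2_b1. Without Lars2, 21 members rose in K556R.

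AK144265, a clone name to which no position was given here and which was chosen after its values were seen, was highest where Lars2 was highest. It was at 12.8, 4.68 and 2.96 CPM in K556R refed 2_b1, K556R refed 1_b1 and K556R fasted 2_b1, the 3 libraries highest in Lars2. It was at 0.524 to 0.854 CPM in the 6 batch 2 libraries. Within batch 2 it did not follow Lars2, with 0.854 CPM in K556R refed 1_b2 (Lars2 53.6 CPM) and 0.525 CPM in K556R refed 3_b2 (Lars2 54.7 CPM). The ratio of Lars2 to AK144265 ran from 34.6 in K556R refed 1_b1 to 104 in K556R refed 3_b2. What the row measures was not tested.

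**Figure D5:**
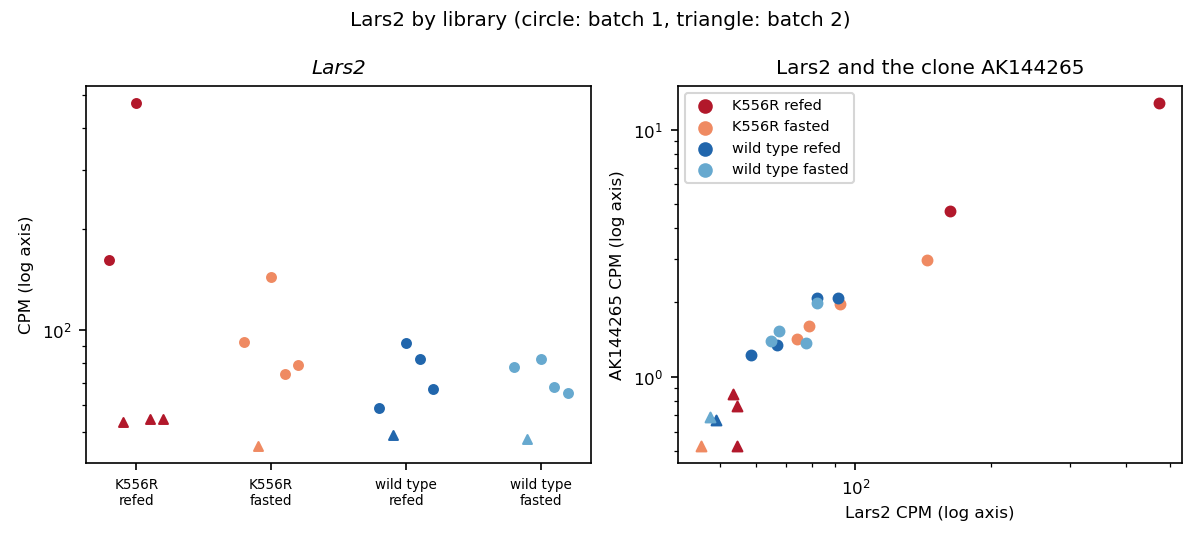
Left, Lars2 CPM (log axis) in each library by group; right, AK144265 CPM against Lars2 CPM (both log axes), 1 point per library, with circles for batch 1 and triangles for batch 2. K556R refed 2_b1 stands highest at 473 CPM Lars2 and 12.8 CPM AK144265, and the batch 2 libraries lie lowest at 45.3 to 54.7 CPM Lars2.

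Levels within the family were compared per kilobase of the principal transcript. In wild type livers Aars was at 43.8 CPM per kb refed and 34.6 fasted, Nars at 43.8 refed and 32.7 fasted, Dars at 37.7 refed and 34.6 fasted and Eprs at 31.2 refed and 30.5 fasted. These 4 were the highest by fasted level. The highest mitochondrial members were Lars2 at 17.9 CPM per kb refed and 17.5 fasted and Iars2 at 15.1 refed and 15.0 fasted. Pars2 was at 1.23 refed and 0.689 fasted and Mars2 at 0.264 refed and 0.21 fasted, the lowest, with Mars2 resting on an annotated transcript of 11.3 kb. Leaving Lars2 out, the median coefficient of variation of the members in a group was 5.82% to 8.45%.

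Batches and doubtful libraries changed the counts as follows. In batch 1 alone 16 members rose in K556R and 18 in wild type. K556R had 2 refed libraries there, the set-apart 1_b1 and 2_b1, which was highest in Lars2. Of all 14267 genes tested there, 4215 were called in K556R and 5583 in wild type, in either direction. In batch 2 alone wild type had 1 library in each feeding state and K556R had 3 refed and 1 fasted. Fewer members, and fewer of all genes, were called there. The median log2 change in batch 2 was 0.229 for the cytosolic and 0.208 for the mitochondrial set in K556R. For the mitochondrial set in wild type it was 0.262. With the 2 set-apart K556R libraries left out, 21 members rose in K556R and 23 in wild type. Leaving out wild type fasted 1_b2 as well gave 22 in K556R and, in wild type, 12 cytosolic and 8 mitochondrial members higher and 1, Wars2, lower.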

How the data were processed

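Polyadenylated RNA of mouse liver was sequenced in 20 libraries. The authors deposited whole-number counts for each gene, not normalized, with 1 column per library. Per the submitters' processing notes, the build was mm10 and the tools were STAR, HTSeq, TopHat, DESeq2, edgeR and STAR-Fusion. The counting tool and its use of strand are not stated there.

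Counts were fitted with edgeR 4.0.16 (R 4.3.3; filterByExpr with a minimum count of 10 and total of 15, TMM, robust quasi-likelihood F test) in 1 model with group and batch over 20 libraries. p-values were adjusted by Benjamini-Hochberg over 13894 genes. CPM use TMM-adjusted library sizes.

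Other fits used RLE or upper-quartile factors, DESeq2 1.42.0 or limma 3.58.1 with sample quality weights. Further ones had no filter or a filter of CPM 1 in 5 libraries, and dropped the batch term or the robust step. The rest took 1 batch, added the replicate number as a block, took the compared groups alone, or left libraries out.

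Members and lists were chosen with earlier results of these data known. Full statistics go to the 8 called members of lowest p in each direction of each refeeding comparison, to the 4 of lowest p in each genotype comparison and the interaction, and values to up to 4 genes per list. Positions are GENCODE M21. Some promoter sequence is not reported here. Library pairs within a group were compared for duplicates. In all 40 pairs the chi-square per degree of freedom was at least 11.7, well above sampling noise.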

Additional observations from a re-analysis of the deposited data

Results flagged for a closer look

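In each group of 5 libraries, a member was picked out where the highest or lowest library lay far from the rest by Dixon's criterion. This met 12 of 144 groups (8.33%), and chance alone gives about 1 in 20. The widest gap in CPM was that of Lars2 in K556R refed 2_b1, at 473 CPM against 162 CPM in the next library. By the criterion itself, the gap over the range, Gars in wild type fasted 4_b1 was highest at 0.871, against 0.742 for Lars2.

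Wild type refed 3_b1 was the highest of its group for Eprs (159 CPM, next 152), Nars (132 CPM, next 119) and Yars (41.5 CPM, next 35.9). K556R refed 1_b1 was the highest for Nars (126 CPM, next 116) and the lowest for Fars2 (21.5 CPM, next 25.5). K556R fasted 1_b2 was the highest for Gars (42.7 CPM, next 38.0) and Pars2 (2.43 CPM, next 1.46). In wild type fasted livers, Gars was high in 4_b1 (44.2 CPM, next 36.8), Lars low in 3_b1 (23.2 CPM, next 26.1) and Tars high in 1_b1 (107 CPM, next 94.3). Rars2 was low in wild type refed 4_b1 (12.4 CPM, next 14.8).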

How the results depend on the processing

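The number of members called on refeeding stayed within 1.5 times the reported 22 in each genotype in all settings run except batch 2 alone, where 10 were called in K556R and 9 in wild type. Batch 2 has 1 wild type library in each feeding state and 1 K556R fasted library, which are assumed to vary like the 3 K556R refed ones. In the other settings the count was 16 to 26 in K556R and 18 to 26 in wild type. Leaving out 1 library gave 19 to 23 in K556R and 19 to 26 in wild type, and 0 for both genotype comparisons and the interaction throughout. No refeeding change that was called reversed. Values near 0 that were not called did change sign: Sars in wild type ran from -0.073 to 0.074, Eprs in wild type from -0.007 to 0.143, Nars2 in K556R from -0.023 to 0.261 and Hars2 in K556R from -0.031 to 0.114. The cytosolic median of K556R over wild type ran from -0.051 to 0.011 in refed livers and from -0.029 to 0.152 in fasted livers. For the interaction the cytosolic median ran from -0.146 to 0.005. The 0.152 and the -0.146 were those of batch 2 alone. Replicate numbers did not pair the libraries in general. Within a batch, 4 of 24 same-numbered pairs had correlations over 0.1 in their deviations, with a range of -0.371 to 0.65. Of differently numbered pairs 8 of 60 did, with a range of -0.518 to 0.413. The 0.65 was that of K556R fasted 1_b1 with K556R refed 1_b1, the 2 set-apart libraries. Whether these 2 are independent was not tested. A fit with the replicate number as a block called 19 members in K556R, 20 in wild type and 0 in the other comparisons. Under it Cars, Qars, Vars and Sars2 were not called in K556R, nor Rars and Aars2 in wild type. Eprs, Sars, Fars2, Hars2, Iars2, Nars2 and Vars2 were called in neither genotype under any of 14 settings other than leaving out 1 library, and Wars2 fell in wild type in 1 of these, without the set-apart K556R libraries and wild type fasted 1_b2. Leaving out wild type fasted 1_b2 alone gave 12 cytosolic and 6 mitochondrial members higher and 1 lower in wild type. Upper-quartile scaling moved the median of all genes to 0.061 in K556R and 0.06 in wild type. Depth limits Pars2, with 43 to 205 reads per library, and Mars2, with 61 to 185.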
